A study of Mus musculus with 6 samples.

Results

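The TGF-beta and BMP signalling family was read in mouse mesenchymal stem cells with and without exposure to terahertz light. Its members were genes whose array annotation gives a single symbol that fits a name rule. The rule took bone morphogenetic proteins (Bmp) and growth differentiation factors (Gdf) whose symbol ends in a number, so that Bmp8a, for example, stayed out. It also took transforming growth factors beta (Tgfb1 to Tgfb3), activin chains (Inhba, Inhbb), receptors (Tgfbr, Bmpr, Acvr) and Smads. The rule gave 39 of 18193 genes, read by 87 of 45037 probe sets. Each gene was read from its brightest probe set by the mean of the 6 arrays. The members were chosen by name and not by their values.

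The study ran 3 independent experiments, and each placed 1 culture for 2 h under a continuous-wave laser of 2.52 THz (wavelength 118.8 µm), which is far-infrared light. A control culture stood beside it at the same 26 to 27 °C without exposure, and RNA was taken directly afterwards and read on 1 Affymetrix array per culture, 3 irradiated and 3 control arrays in all. All 6 cultures held commercially supplied cells in medium with 5% serum and 4 compounds added anew 48 h earlier: rosiglitazone (1 µM), which activates the fat-cell regulator PPAR-gamma, insulin (5 µg/ml), isobutylmethylxanthine (100 µM), which raises cyclic AMP, and the glucocorticoid dexamethasone (1 µM). Both groups therefore carried a mixture that drives such cells towards fat cells, and no culture without it was compared. The labels name no mouse strain or age.

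Ligands of this family are secreted as dimers and bind a pair of receptor kinases, a type II receptor that phosphorylates a type I receptor. The type I receptor then phosphorylates Smad proteins, which join Smad4 and enter the nucleus. TGF-beta and activin signal mainly through Smad2 and Smad3, and BMPs through Smad1, Smad5 and Smad9, while Smad6 and Smad7 are inhibitors that the pathway induces. In mesenchymal stem cells BMPs favour bone and fat formation, and TGF-beta favours matrix production and restrains fat formation.

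The array medians of all genes lay between 6.41 and 6.50 on the log2 scale. Of 11 measured mesenchymal stromal markers 10 reached the median gene level of 6.46, and Thy1, a defining surface marker, was not (3.88). All 8 measured fat cell markers and 9 of 10 macrophage markers reached it, against 0 of 8 endothelial markers and 0 of 5 T and B cell markers. A value here can therefore come from cells of more than 1 kind, and fewer cells of a type cannot be told apart from less RNA per cell. For actin, the 3′ minus 5′ value, a measure of RNA integrity, was 0.68 log2 units in the control of experiment 3 and 0.50 to 0.57 on the other 5 arrays. For Gapdh the same measure was 0.11 in that control and -0.10 to -0.08 on the other 5 arrays. The part of RNA integrity in the values below, above all those of experiment 3, was not tested.

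Smads and type II and III receptors of the family were mostly high on the array's scale, and most BMP and GDF ligands were low. At or above the median gene level were 4 of 5 type II and III receptors and 7 of 8 Smads, but only 2 of 13 BMP and GDF ligands. Type I receptors (4 of 7) and TGF-beta and activin ligands (3 of 5) lay between. In all, 21 of 39 members reached that level, against 50% of all genes. As a guide to dim probe sets, 28 genes restricted to other tissues, such as liver or retina, had a 95th percentile of 5.89, which 24 of 39 members passed against 55.4% of all genes. Probes differ in how brightly they bind, so a level is given by its place among all genes, as a percentile, and is no ratio between members.

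**Figure D1:**
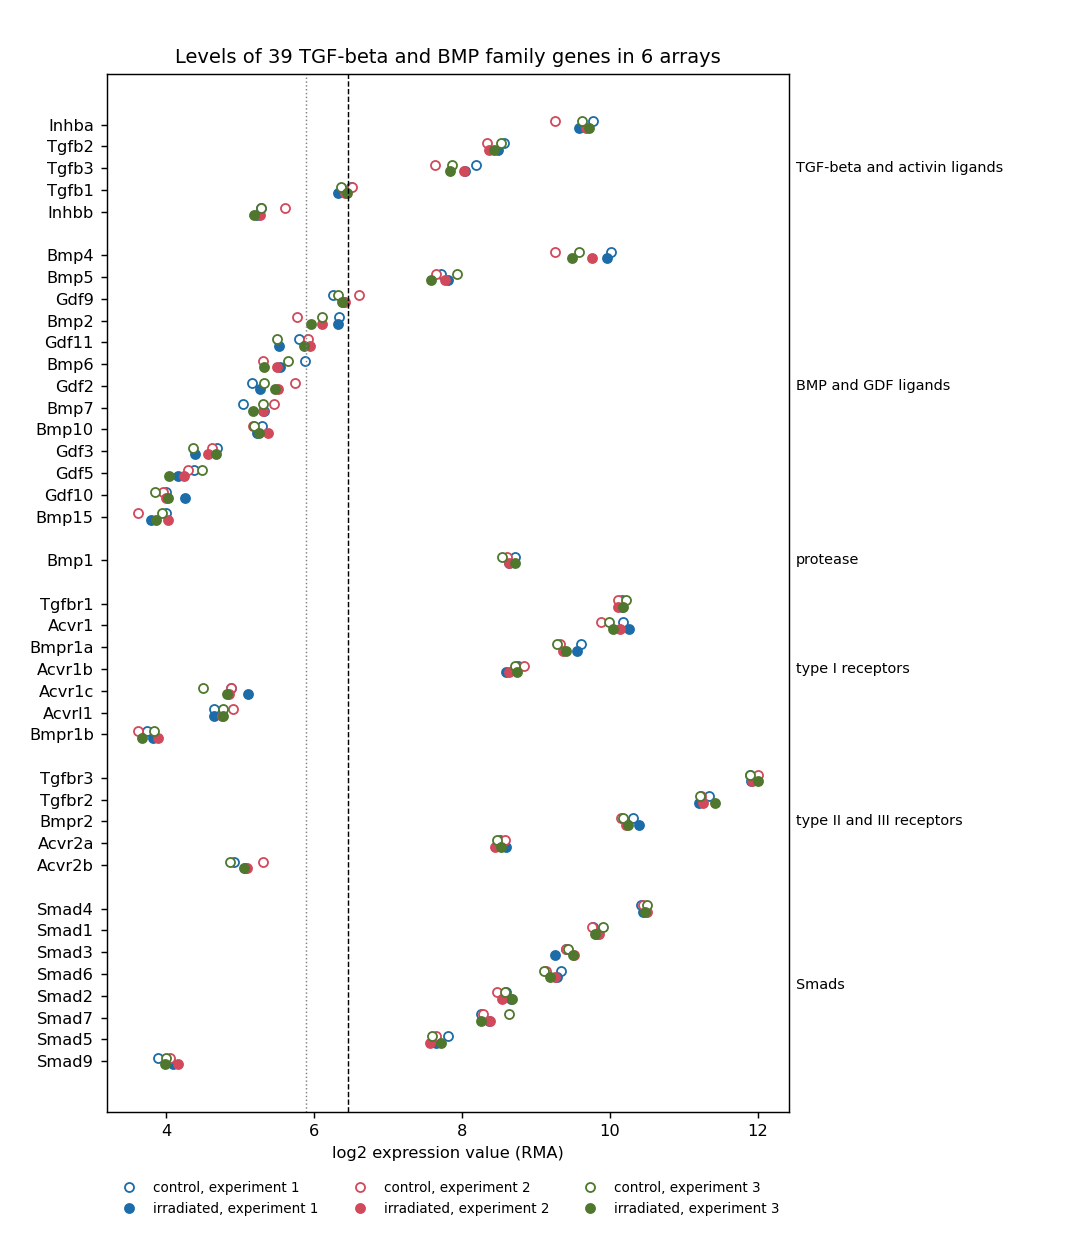
Log2 expression values (RMA, horizontal axis) of the 39 family genes, by role, in the 3 control arrays (open circles) and the 3 irradiated arrays (filled circles), 1 colour per experiment. The dashed line is the median gene level (6.46) and the dotted line the 95th percentile of genes restricted to other tissues (5.89); receptors and Smads lie mostly to the right, and the spread between arrays of a gene is small beside the range of levels.

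No member passed the test of irradiation. A limma fit that paired the arrays by experiment, with Benjamini-Hochberg adjustment over all 18193 genes, called 0 of 39 members, where it called 0% of all genes. At an unadjusted p under 0.05 it gave 1 of 39 members against 3.31% of all genes. An ordinary paired test without moderation called 0 members and 8 of all genes. It gave 2 of 39 members an unadjusted p under 0.05, Bmpr2 and Smad2, against 788 of 18193 genes. The differences of Bmpr2 and Smad2 had SDs of only 0.010 and 0.015 over the experiments, where the deposited values are rounded to 2 decimals. The 39 mean differences ran from -0.24 to 0.18 log2 units with a median of 0.02, against -0.01 over all genes, and 26 were above 0, where 45.2% of all genes were. The 95% confidence intervals of all 39 lay within 1.5-fold in either direction, as did those of 98.3% of all genes, and together they spanned -0.47 to 0.43 log2 units. These intervals bound changes of the RMA values, which tend to understate changes of dim probe sets.

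**Figure D2:**
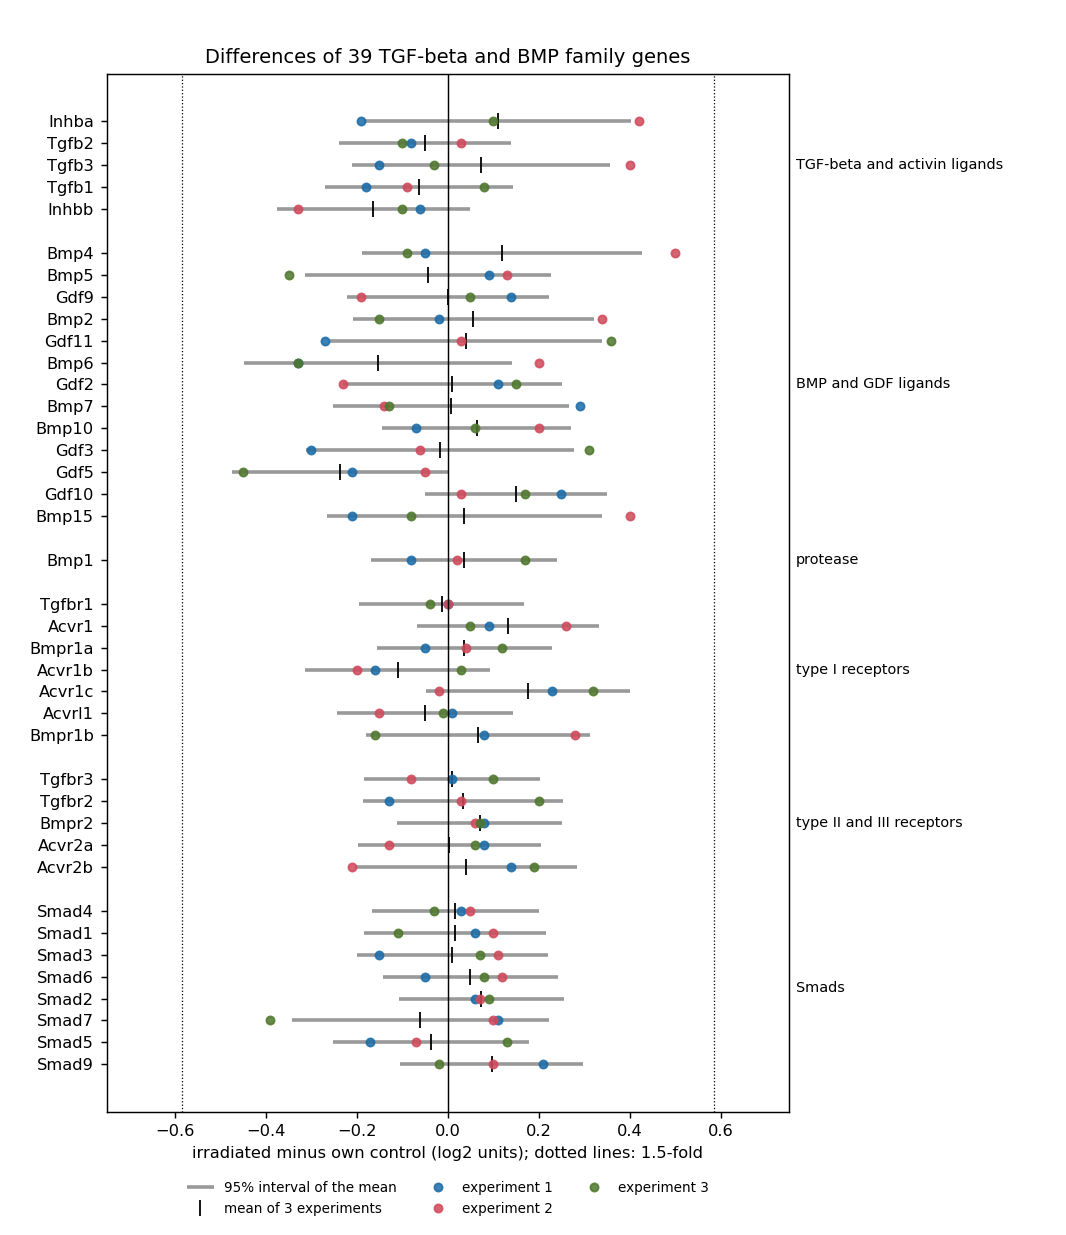
Irradiated minus own control in log2 units (horizontal axis) for each family gene in experiments 1 to 3 (coloured points), with the mean (black tick) and its 95% confidence interval from limma (grey bar). Every bar stays inside the dotted lines at 1.5-fold, and in experiment 2 Bmp4, Inhba and Tgfb3 lie between 0.40 and 0.50.

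The ligands that act through TGF-beta and activin receptors were led by Inhba, which encodes the chain of activin A (86.0th percentile). Its control arrays read 9.77, 9.25 and 9.62 in experiments 1 to 3 and its irradiated arrays 9.58, 9.67 and 9.72. The control of experiment 2 was the lowest of the 6 and the groups overlapped, with a mean difference of 0.11 log2 units (SE 0.12, n = 3 pairs). Tgfb2, a TGF-beta isoform (73.0th percentile), stood at 8.57, 8.33 and 8.53 in controls and 8.49, 8.36 and 8.43 in irradiated cultures, a difference of -0.05 (SE 0.079). Tgfb3, the third isoform (66.5th percentile), read 8.19, 7.63 and 7.86 against 8.04, 8.03 and 7.83, again with the lowest value in the control of experiment 2. Tgfb1, the isoform that immune cells and platelets release in quantity, was near the middle of the scale (49.8th percentile) at a difference of -0.06 (SE 0.087). Inhbb, the chain of activin B, was dim (5.30) but lower in all 3 experiments: its controls read 5.28, 5.60 and 5.28 and its irradiated arrays 5.22, 5.27 and 5.18. Its groups did not overlap, as for 8.26% of all genes, and its difference of -0.16 (SE 0.089) had an unadjusted p of 0.110 in limma. The other Inhbb probe set (4.23) stood at -0.17, -0.30 and 0.19 in the 3 experiments, with overlapping groups.

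Among BMP and GDF ligands Bmp4, a ligand that commits stem cells to the fat lineage, was highest on the scale (86.7th percentile). Its controls read 10.01, 9.25 and 9.58 and its irradiated cultures 9.96, 9.75 and 9.49. The pair of experiment 1 lay above the other arrays, and the difference was 0.12 log2 units (SE 0.13, n = 3 pairs), made up of -0.05, 0.50 and -0.09 in the 3 experiments. Bmp5 (64.2th percentile) stood at 7.72, 7.64 and 7.93 in controls and 7.81, 7.77 and 7.58 in irradiated cultures, where experiment 3 went the other way from experiments 1 and 2. Gdf9, known as an oocyte factor, lay just below the median level, with controls at 6.25, 6.60 and 6.32, irradiated arrays at 6.39, 6.41 and 6.37 and a mean difference of 0. Bmp2, an inducer of bone formation, read 6.34, 5.76 and 6.11 in controls and 6.32, 6.10 and 5.96 after irradiation. The remaining 9 BMP and GDF ligands (Gdf11, Bmp6, Gdf2, Bmp7, Bmp10, Gdf3, Gdf5, Gdf10 and Bmp15) were below the dim-probe guide, at levels of 3.87 to 5.75.

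Gdf5, a joint and cartilage factor, was the 1 member with an unadjusted p under 0.05 for irradiation in the moderated limma fit over all genes. Its controls read 4.37, 4.29 and 4.48 and its irradiated arrays 4.16, 4.24 and 4.03, so that the groups did not overlap and all 3 experiments were lower, by 0.24 log2 units on average (-0.24, SE 0.099). limma gave an unadjusted p of 0.04998 and a Benjamini-Hochberg adjusted p of 0.995, and the adjusted p ran from 0.926 to 1 over the members' alternatives. The same probe set had an unadjusted p of 0.0564 in the limma fit over all probe sets, and 0 members were under 0.05 with centred arrays, without _x_at and _s_at probe sets or with trended robust moderation. Without experiment 3 the difference was -0.13. At the 25.2th percentile the probe set lies in the range of genes restricted to other tissues. Gdf10 (controls 4, 3.96 and 3.85, irradiated 4.25, 3.99 and 4.02) was likewise dim and higher in all 3 experiments, at 0.15 (SE 0.084). Bmp1, which is grouped with BMPs by name, is a protease that trims procollagen and frees latent ligands. It read 8.72, 8.61 and 8.54 in controls and 8.64, 8.63 and 8.71 after irradiation, a difference of 0.04 (SE 0.086).

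Type I receptors pass the signal to Smads. Tgfbr1, the type I receptor for TGF-beta (90.3th percentile), read 10.16, 10.11 and 10.21 in controls and 10.16, 10.11 and 10.17 in irradiated cultures, a mean difference of -0.01 (SE 0.076). Acvr1, a BMP type I receptor (89.8th percentile), was higher in all 3 experiments, with controls at 10.17, 9.88 and 9.99 and irradiated arrays at 10.26, 10.14 and 10.04. The groups overlapped, and the difference of 0.13 log2 units (SE 0.084) was the largest upwards among the 21 brighter members, at an unadjusted p of 0.157 in limma. A dimmer Acvr1 probe set (7.90) stood at 0.16 on average but at -0.15, 0.39 and 0.24 in the 3 experiments. Bmpr1a, the main BMP type I receptor of mesenchymal cells, read 9.61, 9.33 and 9.29 in controls and 9.56, 9.37 and 9.41 after irradiation (0.04, SE 0.080). Acvr1b, the activin type I receptor, had the largest difference downwards at that level, -0.11 (SE 0.085), with controls at 8.75, 8.84 and 8.71 and irradiated arrays at 8.59, 8.64 and 8.74. Acvr1c, a related receptor that fat cells are known to express, was dim here (4.84), at 4.87, 4.87 and 4.5 in controls and 5.10, 4.85 and 4.82 after irradiation (0.18, SE 0.094). Acvrl1 of endothelial cells (4.75) and Bmpr1b (3.76) were below the dim-probe guide too.

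Type II and III receptors held the members highest on the scale. Tgfbr3, or betaglycan, a co-receptor that presents TGF-beta (98th percentile), read 11.90, 12 and 11.90 in controls and 11.91, 11.92 and 12 in irradiated cultures, a difference of 0.01 (SE 0.081). Tgfbr2, the type II receptor for TGF-beta (96.1th percentile), stood at 11.34, 11.23 and 11.22 against 11.21, 11.26 and 11.42 (0.03, SE 0.092). Bmpr2, the BMP type II receptor (90.9th percentile), was higher by nearly the same amount in each experiment, 0.08, 0.06 and 0.07, with controls at 10.31, 10.15 and 10.17 and irradiated arrays at 10.39, 10.21 and 10.24. The groups overlapped. The mean of 0.07 had an SE of 0.076 and an unadjusted p of 0.388 in limma, which draws each gene's variance towards that of all genes, and an SE of 0.0058 in the ordinary paired test, where the unadjusted p was under 0.05 and the adjusted p was 1. Both other Bmpr2 probe sets, at levels of 5.20 and 4.20, lay on the other side of 0, at -0.19 and -0.08. Acvr2a, an activin type II receptor, was at 0.0033 (SE 0.084), and Acvr2b was dim (5.05). All 5 means of this role were above 0 and none passed the test.

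Smads carry the signal to the nucleus. Smad4, the partner of all signalling Smads (92.4th percentile), read 10.42, 10.45 and 10.5 in controls and 10.45, 10.5 and 10.47 in irradiated cultures, a difference of 0.02 (SE 0.077, 95% interval -0.17 to 0.20). Smad1, which BMP receptors activate, stood at 9.77, 9.75 and 9.91 in controls and 9.83, 9.85 and 9.80 after irradiation, and Smad3, which TGF-beta receptors activate, at 9.40, 9.40 and 9.43 against 9.25, 9.51 and 9.5. Their differences were 0.02 (SE 0.084) and 0.01 (SE 0.088), with overlapping groups. Smad2, the partner of Smad3, was higher in all 3 experiments, by 0.06, 0.07 and 0.09, with controls at 8.60, 8.47 and 8.58 and irradiated arrays at 8.66, 8.54 and 8.67, but a dimmer probe set of the gene (6.88) averaged -0.07. The SE of the Smad2 mean was 0.076 in limma and 0.0088 in the ordinary paired test, with an unadjusted p under 0.05 in the latter only. Of all members 4 were higher in all 3 experiments (Acvr1, Bmpr2, Smad2 and Gdf10) and 2 lower (Gdf5 and Inhbb), against 8.23% and 12.8% of all genes.

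The inhibitory Smads are known as genes that the pathway switches on within hours. No culture with added or blocked ligand was compared here, so how far they report signalling in these cultures was not tested. Smad6, which BMP signalling induces, read 9.34, 9.14 and 9.11 in controls and 9.29, 9.26 and 9.19 in irradiated cultures, a difference of 0.05 (SE 0.081). Smad7, which TGF-beta and BMP both induce, read 8.26, 8.28 and 8.64 in controls and 8.37, 8.38 and 8.25 after irradiation. The single high array was the control of experiment 3, the one with the actin value of 0.68. With it the difference of Smad7 was -0.06 (SE 0.12), and without experiment 3 it was 0.105. The other Smad7 probe set (7.83) stood at -0.01, -0.05 and -0.09 in the 3 experiments. Smad5 was at -0.04 (SE 0.090) and Smad9, dim at 4.03, at 0.10 (SE 0.084).

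In single experiments a few ligands differed by more than their means show. In experiment 2 the irradiated culture exceeded its control by 0.50 for Bmp4, 0.42 for Inhba, 0.40 for Tgfb3 and 0.34 for Bmp2, the 4 largest values in that experiment among the 24 members above the dim-probe guide. In each of these genes the control of experiment 2 was the lowest of the 6 arrays, and experiments 1 and 3 gave values between -0.19 and 0.10. Without experiment 2 Bmp4 stood at -0.07, Inhba at -0.045 and Tgfb3 at -0.09. Differences of at least 0.25 log2 units, a size chosen after the values were seen, occurred in 0, 4 and 2 of the 21 members at or above the median level in experiments 1 to 3, against 8.06%, 14.4% and 12.3% of genes equally bright. The 4 of experiment 2 were Bmp4, Inhba, Tgfb3 and Acvr1 (0.26), all higher, and the 2 of experiment 3 were Bmp5 (-0.35) and Smad7 (-0.39), both lower.

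Fat cell markers were lower in the irradiated culture of the same experiment. The mean over all 8 fat cell markers was 11.61 in the control of experiment 2 and 11.13 in its irradiated culture, the highest and the lowest of the 6 arrays, and all 8 were lower in that pair, with Lipe, hormone-sensitive lipase, at -1.17. Their summed level on a linear scale ran from 53556 to 60207 in controls and from 51067 to 59425 in irradiated cultures. The 11 mesenchymal stromal markers averaged 9.91 and 10.04 in that pair, with 10 of 11 higher, and their sums ran from 19414 to 20062 in controls and from 19078 to 21382 in irradiated cultures. Smooth muscle markers averaged 6.94 and 7.35 in the same pair, with 7 of 7 higher, and osteoblast markers 7.05 and 7.62, with 5 of 5 higher. Chondrocyte markers averaged 5.28 and 5.42, with 5 of 6 higher, and epithelial markers 4.22 and 4.35, with 6 of 6 higher. Only 1 of 6 chondrocyte and 1 of 6 epithelial markers were as bright as the median gene. Of endothelial markers 4 of 8 were higher in that pair and of T and B cell markers 2 of 5, against 47% of all genes. Over all experiments the sums of the smooth muscle markers ran from 5984 to 8887 in controls and from 8039 to 9019 in irradiated cultures, and those of the osteoblast markers from 1215 to 2550 and from 1784 to 2252. For the 10 macrophage markers it gave 10.97 and 10.99, with sums of 41796 to 48683 in controls and 38827 to 52584 in irradiated cultures over all experiments. None of these lists has a marker at 0, since array values have no true zero. Their part in the ligand values was not tested.

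**Figure D3:**
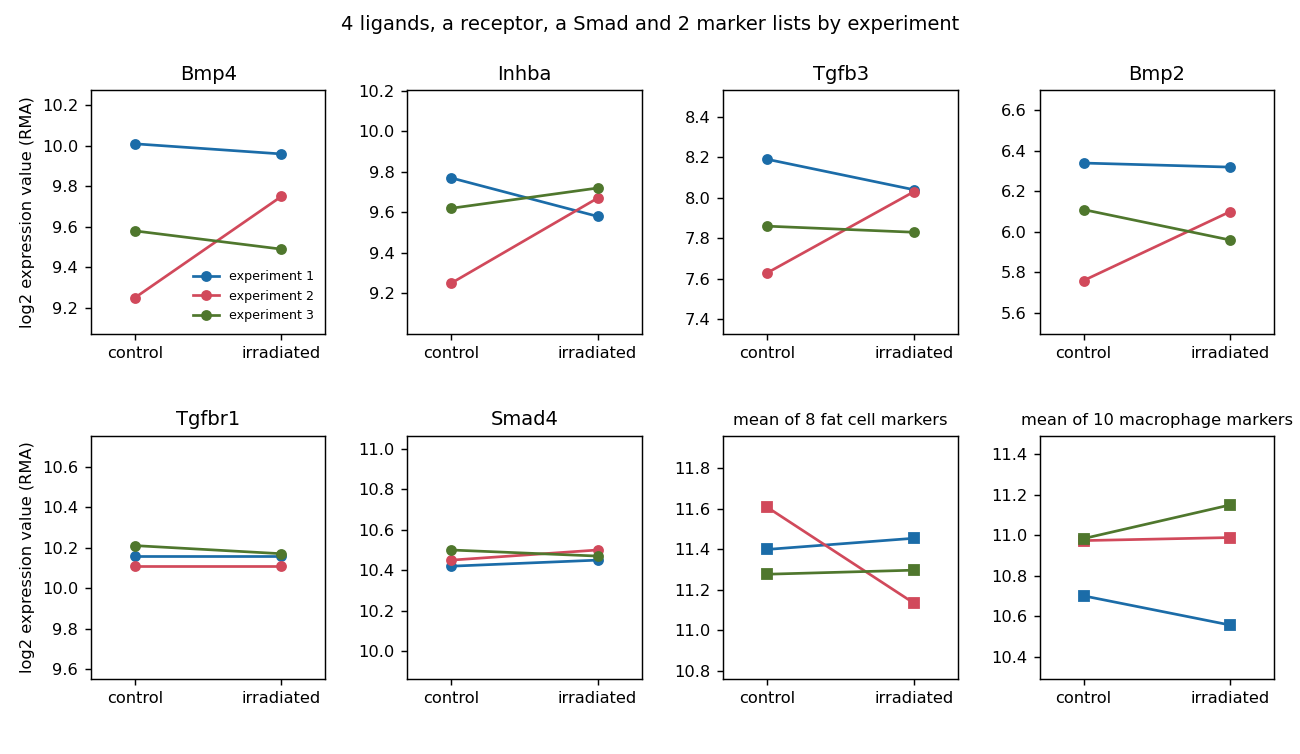
Log2 expression values (RMA, vertical axes, all of the same span) in the control and the irradiated culture of each experiment (joined points), for 4 ligands, the receptor Tgfbr1, Smad4 and the mean of 8 fat cell and 10 macrophage markers. In experiment 2 the ligands run up from the lowest control (Bmp4 9.25 to 9.75) and the fat cell markers run down (11.61 to 11.13), while Tgfbr1 runs only from 10.11 to 10.21 over the 6 arrays.

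Experiments differed from each other about as much in this family as in other genes. A limma F-test between the 3 experiments, irrespective of irradiation, called 0 of 39 members after Benjamini-Hochberg adjustment, against 0% of all genes, and gave 2 of 39 an unadjusted p under 0.05, against 5.46% of all genes (among those of at least median brightness, 1 of 21 against 3.63%). These were Bmp4, whose experiment means were 9.98, 9.5 and 9.54 (unadjusted p 0.0340), and Gdf2, a circulating BMP, which was dim with controls at 5.16, 5.74 and 5.32 and irradiated arrays at 5.27, 5.51 and 5.47 (unadjusted p 0.0379), both at an adjusted p of 0.907. The range of experiment means was 0.14 log2 units for the median member and 0.13 for the median gene. Of the macrophage markers 6 of 10 had an unadjusted p under 0.05 in the same limma F-test and none passed it after adjustment, and their mean was lowest in both arrays of experiment 1 (10.70 and 10.56).

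Promoters were examined for 7 members chosen after their values were seen, the 4 ligands of experiment 2 and the 3 bright members higher in all experiments (Acvr1, Bmpr2 and Smad2). RefSeq's table for GRCm38.p6 matched 27 of 39 members, and the windows of Bmp4, Inhba, Acvr1 and Bmpr2 are shown. The 250 bases before each start are shown 5′ to 3′ on the gene's strand, at chr14:46390670-46390919 (minus strand) for Bmp4, chr13:16011601-16011850 (plus) for Inhba, chr2:58566829-58567078 (minus) for Acvr1 and chr1:59764029-59764278 (plus) for Bmpr2. Capitals mark matches, on either strand, to the Smad box CAGAC, the palindromic Smad element GTCTAGAC, the GC-rich Smad element GGCGCC, the cyclic AMP half-site TGACG (which lies within the full cyclic AMP element TGACGTCA), the AP-1 element TGANTCA or the TATA box TATAAA.
Bmp4: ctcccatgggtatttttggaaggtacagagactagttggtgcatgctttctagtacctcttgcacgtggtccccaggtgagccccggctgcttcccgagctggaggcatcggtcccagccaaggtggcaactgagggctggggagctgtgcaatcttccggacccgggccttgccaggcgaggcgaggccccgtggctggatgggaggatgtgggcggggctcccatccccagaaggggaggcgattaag
Inhba: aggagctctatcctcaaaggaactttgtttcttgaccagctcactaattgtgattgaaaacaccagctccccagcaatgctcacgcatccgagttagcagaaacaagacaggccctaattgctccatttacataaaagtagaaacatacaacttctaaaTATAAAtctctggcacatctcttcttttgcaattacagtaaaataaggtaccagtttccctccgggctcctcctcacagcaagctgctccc
Acvr1: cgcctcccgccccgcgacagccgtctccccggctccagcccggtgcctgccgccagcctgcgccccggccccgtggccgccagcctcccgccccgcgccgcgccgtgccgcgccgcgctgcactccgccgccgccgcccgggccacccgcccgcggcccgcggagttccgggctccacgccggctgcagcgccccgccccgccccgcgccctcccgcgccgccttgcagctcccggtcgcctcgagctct
Bmpr2: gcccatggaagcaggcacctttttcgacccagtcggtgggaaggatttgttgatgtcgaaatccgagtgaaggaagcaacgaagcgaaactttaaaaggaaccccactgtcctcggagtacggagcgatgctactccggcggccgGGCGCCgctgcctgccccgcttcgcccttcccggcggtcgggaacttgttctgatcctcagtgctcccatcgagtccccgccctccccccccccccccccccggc

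Among these 4 windows, picked after the values were seen, both ligand windows were poorer in CG pairs than both receptor windows. Over all matched windows of the family the 2 roles overlapped, with 2 (Bmp15) to 35 (Gdf10) CG pairs in ligands and 1 (Bmpr1b) to 49 (Acvr2a) in receptors. Whether the roles differ in general was not tested. The ligand Tgfb1, for example, held 21 CG pairs and the receptor Tgfbr2 held 12. Bmp4 had a GC content of 63.2% with 11 CG pairs and Inhba 43.2% with 3, against 85.6% with 46 for Acvr1 and 64.0% with 22 for Bmpr2, where the median of all 32851 windows was a GC content of 52.4%. Inhba held 1 TATA box, 91 bases before the start, as 12.4% of all windows hold at least 1, and Bmpr2 held 1 GC-rich Smad element, as 9.59% do. The Smad box, present in 42.2% of all windows and in 11 of 33 windows of members, was in none of these 4 windows, nor were the palindromic Smad element (0.167% of all windows), the cyclic AMP half-site (17.8%), the full cyclic AMP element (1.55%) or the AP-1 element (6.75%). A match is a run of letters and not a bound site.

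Genes that act with the family were followed in 6 lists. limma with Benjamini-Hochberg over all genes called 0 higher and 0 lower in every list. In all 6 lists, which share some genes such as Thbs1, 1 gene had an unadjusted p under 0.05, against 3.31% of all genes. It was Sp7 (0.19, SE 0.078), a bone transcription factor among the 18 BMP targets. Together with the family genes outside the symbol rule, the lists held 103 different genes, of which 2 had an unadjusted p under 0.05 in limma. Sp7 is also in the osteoblast marker list, where 5 of 5 measured genes were above 0 on average and 2 had an unadjusted p under 0.05 in limma. Antagonists and binding proteins had 7 of 16 genes above 0 and a median of -0.0033, with medians of -0.0050, 0.14 and -0.08 in the 3 experiments. Of this list decorin (Dcn), a matrix proteoglycan that binds TGF-beta, was at 0.11 (SE 0.13), the BMP antagonist Grem1 at 0.11 (SE 0.12) and Twsg1, a BMP-binding protein, at 0.09 (SE 0.091). Follistatin (Fst), which traps activin, stood at 0.10, 0.34 and -0.26 in the 3 experiments, beside -0.19, 0.42 and 0.10 for Inhba. Chrdl1, a BMP antagonist, spread most, at 0.96, -0.25 and -0.76, and Nog, the BMP antagonist noggin, was dim (4.39).

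The latent complex and its activators, which store TGF-beta in the matrix and release it, had 7 of 12 genes above 0 and a median of 0.0033. Thbs1, thrombospondin, which activates latent TGF-beta, was at 0.18 (SE 0.11), the integrin Itgav at 0.10 (SE 0.080) and the latent binding protein Ltbp3 at -0.06 (SE 0.086). Co-receptors had 4 of 8 above 0, with Nrp1 at 0.11 (SE 0.087), Rgmb at -0.04 (SE 0.081) and endoglin (Eng), a TGF-beta co-receptor and stromal marker, at -0.03 (SE 0.076). Intracellular regulators had 10 of 24 above 0 and a median of -0.02. Smurf1, the ubiquitin ligase that degrades BMP Smads, was lower in all 3 experiments at -0.14, -0.19 and -0.18 (mean -0.17, SE 0.076, unadjusted p 0.0630 in limma), and the deubiquitinase genes Usp15 and Usp9x stood at 0.16 (SE 0.10) and 0.10 (SE 0.092).

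Target genes of both branches were above 0 in most cases, and the TGF-beta targets differed in sign between experiments. Of 21 TGF-beta targets 16 were above 0 with a median of 0.08, against -0.01 over all genes, and medians of -0.10, 0.22 and 0.13 in experiments 1 to 3. In experiment 1 only 2 of 21 were above 0, against 17 and 14 in experiments 2 and 3, where of all genes 40.9%, 47% and 48.9% were above 0 in the 3 experiments. Smooth muscle markers, of which Acta2 and Tagln are also in the target list, were above 0 in 0, 7 and 5 of 7 cases in experiments 1 to 3, with mean differences of -0.25, 0.40 and 0.23. Osteoblast markers, which share Col1a1 with it, were above 0 in 1, 5 and 5 of 5 cases, with means of -0.15, 0.57 and 0.36. The part of these markers in the target values was not tested. Postn, or periostin, was at 0.45 (SE 0.28), the smooth muscle gene Tagln at 0.34 (SE 0.19) and the collagen Col1a1 at 0.27 (SE 0.16), all of which mark matrix-forming or contractile cells as well. Skil and Pmepa1, known as closer targets of Smad signalling, stood at 0.05 (SE 0.082) and -0.05 (SE 0.11). Of 18 BMP targets 13 were above 0 with a median of 0.07 and medians of 0.06, 0.12 and 0.0050 in the 3 experiments, in which 10, 12 and 9 were above 0. Id1, the most direct BMP target among them, was at -0.02, 0.02 and 0 in the 3 experiments (91.2th percentile), Id3 at 0.06 (SE 0.087), Id2 at 0.19 (SE 0.10), Id4 at 0.12 (SE 0.12) and Atoh8 at -0.11 (SE 0.077). None of them passed the test.

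**Figure D4:**
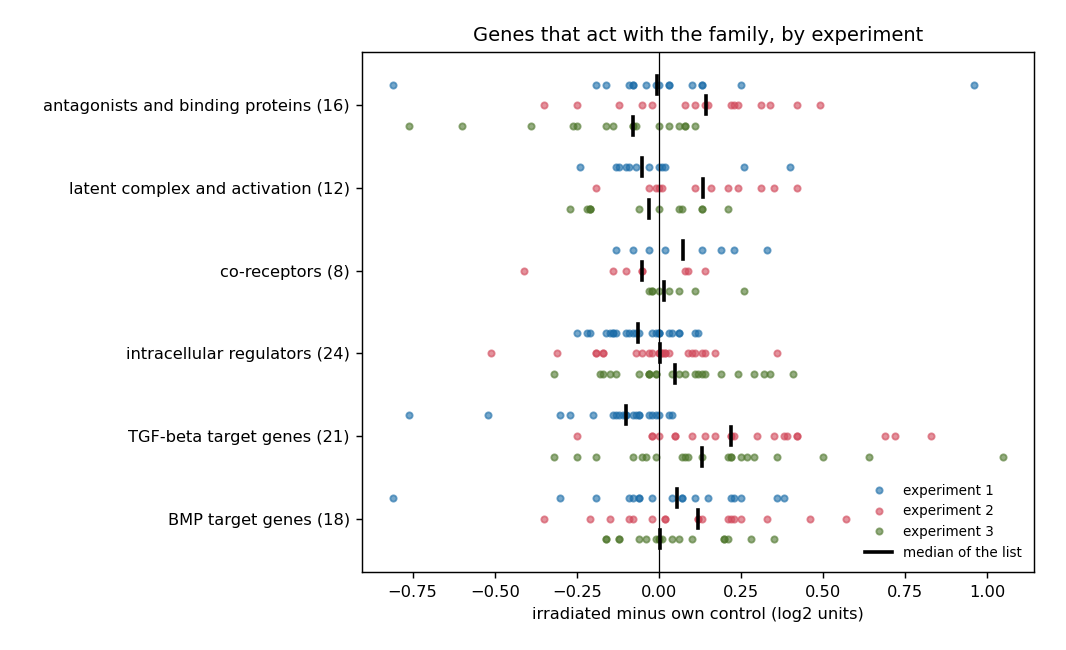
Irradiated minus own control in log2 units (horizontal axis) for the genes of 6 lists (number measured in brackets), 1 point per gene and experiment, with the list's median in each experiment as a black bar. The TGF-beta targets have medians of -0.10, 0.22 and 0.13 in experiments 1 to 3, and no list keeps all its points on 1 side of 0.

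Other probe sets of the members gave no steadier picture. Of 48 such probe sets 0 were called by limma over all 45037 probe sets, which called 0% of them, and 2 had an unadjusted p under 0.05, against 3.77% of all probe sets. One read Bmp1 at a low level (4.61), with controls at 4.85, 4.82 and 4.70 and irradiated arrays at 4.35, 4.59 and 4.35 (mean -0.36, SE 0.094, unadjusted p 0.00605), where the bright probe set of Bmp1 stood at 0.04. The other read Bmp7 at a level of 3.17 (0.29, SE 0.12, unadjusted p 0.0483). Of the 14 other probe sets at or above the median gene level 7 had the same sign as the brightest one of their gene, and all 14 lay between -0.08 and 0.16.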

How the data were processed

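The authors deposited 1 log2 value per probe set and array, made with RMA (background correction, quantile normalization and probe set summary), per the submitters' processing notes, which name RMA, affy and limma without versions. The log base is not stated and was read from the range, 1.73 to 14.53. Quantile normalization hides a change common to all transcripts. Arrays carry no read depth, and their number (3 per group) limits precision. Control probe sets (64) were left out, and symbols came from the platform annotation. limma 3.58.1 in R 4.3.3 was fitted over all genes and over all probe sets, irradiated minus control with the experiment as a block, since the series' design sets each irradiated culture against the control beside it. Deviations of paired arrays from their group means correlated at 0.15, -0.09 and -0.01. Residual degrees of freedom were 2, and moderation added 4.66. Calls needed a Benjamini-Hochberg adjusted p under 0.05. Scripts were tested on simulated data. Members, lists and tests were chosen with earlier results of these data known. Values in all 6 arrays are given for members with an unadjusted p under 0.05 in either test, the 3 highest per role, and the largest differences (4 per direction at or above the median level, 2 below it), and, chosen after their values were seen, for Bmp2 and Smad6. For each list of other pathway genes the 3 largest differences at or above the median level are named, and others for their role. Alternatives covered pairing, centring, filtering, probe set choice, moderation and leaving out each experiment.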

Additional observations from a re-analysis of the deposited data

How the results depend on the processing

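Of 258 values of 24 named members under the alternatives, none was called and 21 changed their side of 0. The other 237 kept their side, were 0 or belonged to Gdf9. The main difference of Gdf9 is 0 and has no side, and it moved between -0.07 and 0.095 when 1 experiment was left out. Without the replicate block limma called 0 genes and 0 members, with 649 genes and 1 member at an unadjusted p under 0.05, so dropping the pairing changed no call. The median of the members stayed between 0 and 0.04 when each experiment was left out, and no gene was then called in either comparison. An ordinary paired test called 8 genes for irradiation and 8 between experiments, none of them a member. Between experiments 1 gene was called when dimmer genes were dropped, 1 with means over probe sets and 2 with trended robust moderation, again with 0 members. Means over probe sets turned the sign of Smad4 (-0.033), Bmp1 (-0.081), Tgfbr1 (0.028), Bmpr1a (-0.0033), Tgfbr2 (-0.0022) and Bmpr2 (-0.067), because dimmer probe sets enter the mean. Leaving out 1 experiment moved Bmp4 between -0.07 and 0.225, Bmp5 between -0.13 and 0.11, Gdf2 between -0.06 and 0.13, Smad1 between -0.025 and 0.08, Smad3 between -0.04 and 0.09, Smad7 between -0.145 and 0.105, Inhba between -0.045 and 0.26, Tgfb3 between -0.09 and 0.185, Bmp1 between -0.03 and 0.095, Bmpr1a between -0.0050 and 0.08, Tgfbr3 between -0.035 and 0.055 and Tgfbr2 between -0.05 and 0.115. The median half-width of the members' 95% intervals was 0.21 log2 units, which limits what 3 pairs can show.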

Other observations

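Family genes that the symbol rule leaves out were measured for 10 further genes. None reached the median gene level, and limma with Benjamini-Hochberg called 0 of them. At an unadjusted p under 0.05 it gave 1 of the 10, against 3.31% of all genes. This was Lefty2, a nodal antagonist (0.24 log2 units, SE 0.090, with 0.35, 0.30 and 0.06 in the 3 experiments). Its level of 3.56 is below the dim-probe guide of 5.89. Bmp8a, a BMP known from brown fat, stood highest on the scale among them (6.20, 47.8th percentile) at -0.06 (SE 0.090), and Inha, whose inhibin chain opposes activin, at -0.13 (SE 0.086).

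2 probe sets that name a gene of the family together with another gene stayed out of the tests per gene. Gdf1 is read only by such a probe set and is not among the 39 members. The probe set shared by Cers1 and Gdf1 (level 5.55) stood at 0.20, 0.10 and -0.25 in the 3 experiments, and the one shared by Orc4 and Acvr2a (level 3.30) at 0.64, 0 and -0.05.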
